A study of Mus musculus with 21 samples.

Results

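The inflammasome and pyroptosis genes described here are 10 mouse genes, chosen by name and matched to their Ensembl identifiers among the 55401 genes of the deposited tables. They are the sensors Aim2, Nlrp3, Nlrc4, Naip2 and Naip5, the adaptor Pycard, the caspases Casp1, Casp4 and Casp8, and the pore-forming protein Gsdmd. All 10 were found, all had over 3 counts in each of the 21 mice, and all passed the filter on low counts in every comparison.

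RNA was sequenced from the forebrains of 21 mice in 6 groups. Of the parental lines there were 3 mice each, E2H, E3H and E4H, in which both copies of the mouse Apoe gene are replaced by human APOE2, APOE3 or APOE4, on a C57BL6 background, killed when 9 to 10 months old. From each line crossed to PS19 there were 4 mice, written PS/E2H, PS/E3H or PS/E4H, homozygous for the same APOE alleles and heterozygous for the PS19 transgene, which drives human P301S tau from the mouse prion promoter, and they were taken at hindlimb paralysis. All mice therefore carried human APOE in place of the mouse gene, and no group had wild-type Apoe. The PS19 line was kept on a B6/C3H background before it was crossed to the APOE lines. The tau transgene, paralysis, age at death and what remained of the C3H genome cannot be told apart when PS19 mice are set against the parental mice of the same allele. According to the methods, 1 E4H, 1 PS/E2H and 2 PS/E4H mice were female and all others were male, and the labels do not say which.

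Inflammasomes are protein platforms that form in the cytosol of myeloid cells after a sensor meets microbial or damage signals. NLRP3 responds to many forms of membrane and ionic stress, AIM2 to double-stranded DNA, and NAIP proteins bind bacterial flagellin or secretion-system proteins and then engage NLRC4. The adaptor ASC, encoded by Pycard, links a sensor to caspase-1, which matures the cytokines IL-1β and IL-18 and cleaves gasdermin D, whose freed end opens pores in the cell membrane in the form of death called pyroptosis. In the brain, microglia are a main source of these proteins. Transcript levels say nothing of assembly, cleavage or pore formation, which are events of proteins.

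Libraries held 59265459 to 75932183 counts (median 63751715). The forebrain markers were present and the summed hindbrain and cerebellum markers reached at most 3.56 CPM (counts-per-million). CPM are the counts of a gene scaled by the total counts of its library times the TMM normalization factor of that library. The 12 microglia markers summed to 486 to 642 CPM in the parental mice and to 733 to 1369 CPM in the PS19 mice, without overlap. In bulk RNA, fewer cells of a type and less RNA per cell cannot be told apart, and the same holds for more of either. Nothing in the labels gives cultures, litters or batches, and p-values measure the spread between mice.

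The 10 genes were expressed at low levels. On the scale of FPKM (fragments scaled to transcript length and to mapped fragments), which allows levels of different genes to be compared, the order differed between parental and PS19 mice. In the 9 parental mice Casp1 was highest at 1.09 ± 0.172 FPKM (mean ± SD), followed by Casp8 (0.872 ± 0.164), Gsdmd (0.803 ± 0.144), Pycard (0.664 ± 0.131), Aim2 (0.610 ± 0.287), Naip2 (0.304 ± 0.0692), Naip5 (0.298 ± 0.0866), Nlrp3 (0.206 ± 0.0634), Casp4 (0.181 ± 0.0414) and Nlrc4 (0.129 ± 0.0357). In the 12 PS19 mice Gsdmd was highest at 1.58 ± 0.463 FPKM, followed by Casp8 (1.34 ± 0.328), Pycard (1.10 ± 0.425), Casp1 (1.09 ± 0.250), Naip2 (0.842 ± 0.251) and Aim2 (0.795 ± 0.182), and the other 4 genes kept their order, down to Nlrc4 at 0.134 ± 0.0545. The ranges of mean ± SD of neighbours in either order overlapped. In counts, a gene held between 16 and 440 counts in a mouse.

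**Figure D1:**
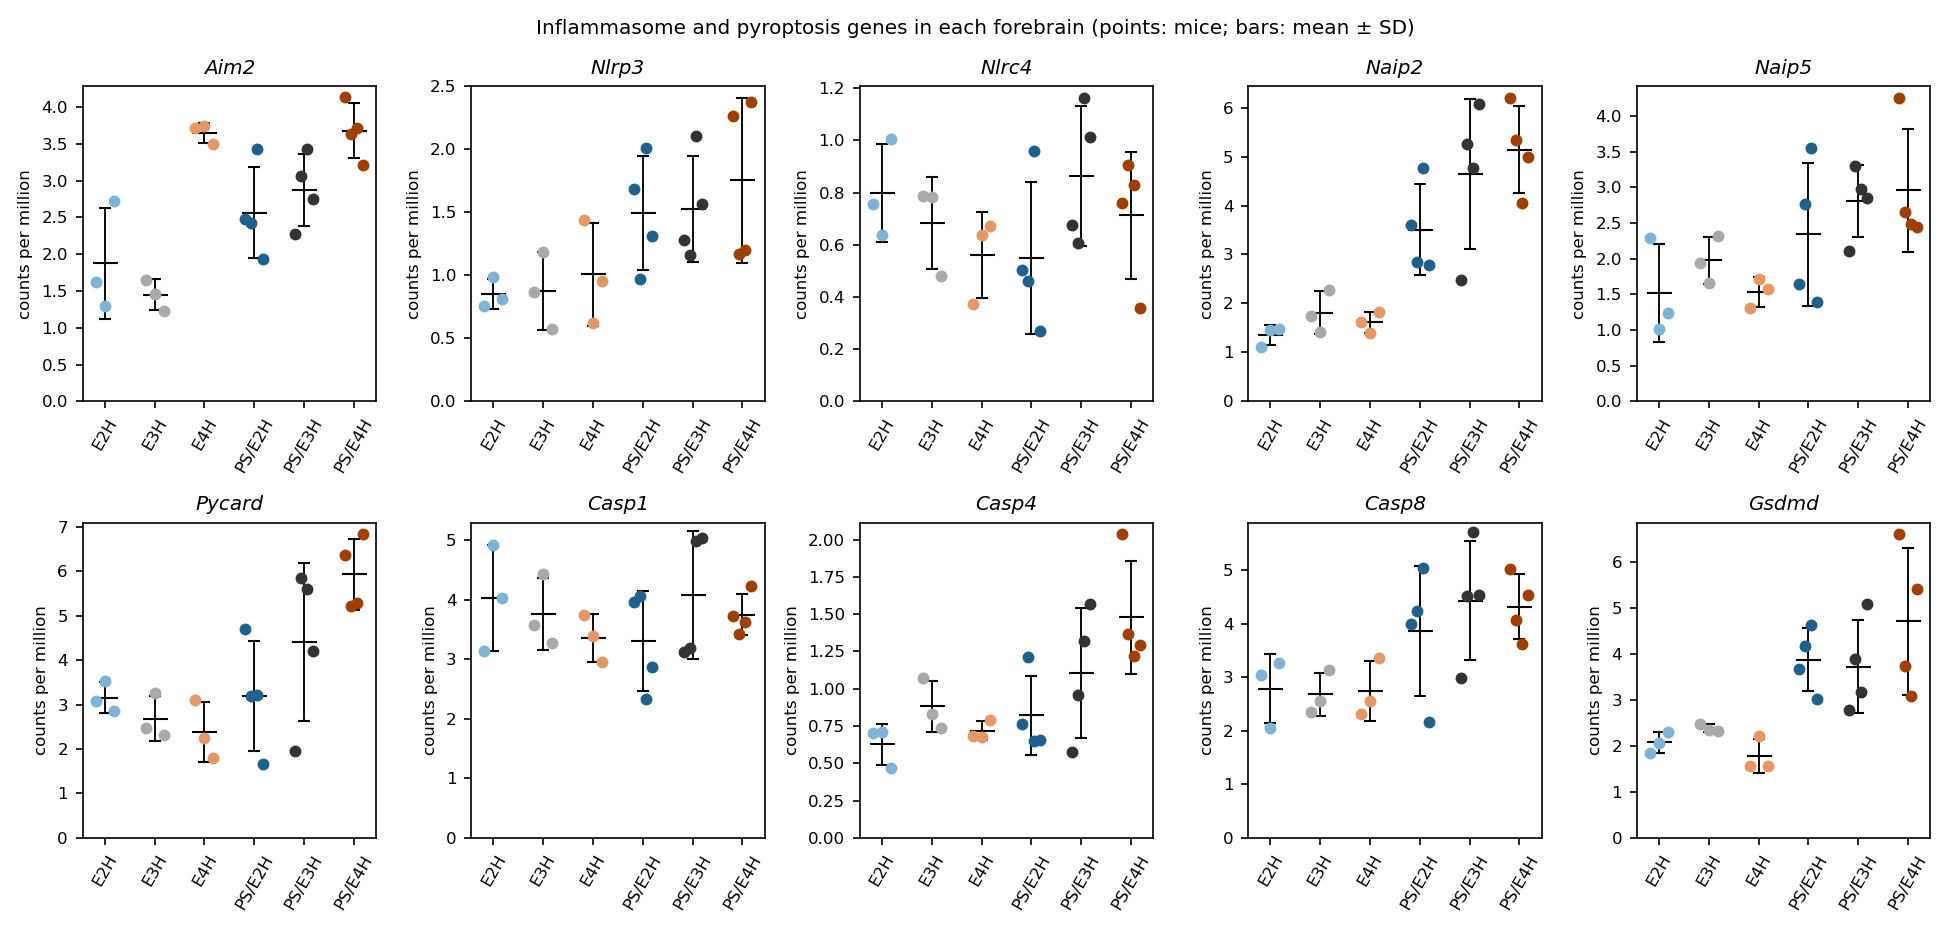
CPM (y axis) of each of the 10 genes in each mouse (points), by group (x axis), with the mean and SD of the group as black bars. Every PS19 mouse lies above every parental mouse for Naip2 and Gsdmd, the 3 E4H mice lie above the other parental mice for Aim2, and the groups overlap for Casp1 and Nlrc4.

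The first question was whether these genes differed between PS19 and parental mice. In a fit over all 21 mice with the APOE line as a term, 8 of the 10 genes were higher in PS19 mice at an adjusted p under 0.05 (edgeR quasi-likelihood test with Benjamini-Hochberg adjustment over all 22863 genes tested), where 11.4% of all genes were higher at that limit. Naip2, Gsdmd, Nlrp3, Naip5, Pycard, Casp8, Casp4 and Aim2 rose, and Casp1 and Nlrc4 did not pass. Only Naip2 also reached a fold change of 2, the limit that the study used together with the adjusted p and that a gene described as called here had to meet. Of all genes, 2.24% were called higher in this fit. The median log2 fold change of the 10 genes was 0.64, beside -0.01 over all genes tested. With the 2 mice highest in neutrophil and monocyte markers left out, which was chosen after the data were seen, 5 of the 10 passed: Naip2, Gsdmd, Nlrp3, Naip5 and Casp8. Aim2 (adjusted p = 0.0652), Pycard (adjusted p = 0.0534) and Casp4 (adjusted p = 0.117) did not. With any 1 mouse left out, 6 to 8 of the 10 passed, and the genes that did not were among Aim2, Pycard and Casp4 beside Casp1 and Nlrc4.

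**Figure D2:**
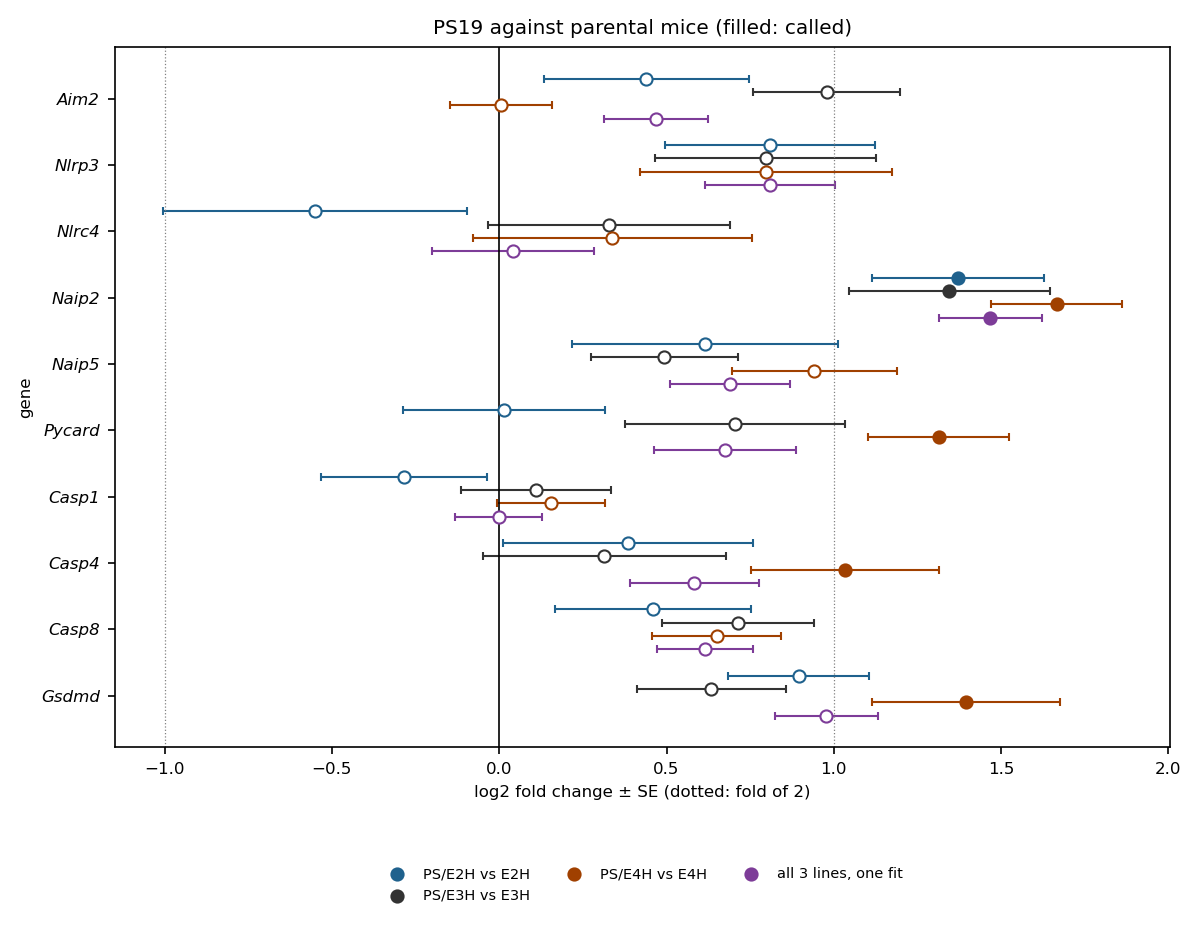
Log2 fold change with its standard error (x axis) of each gene (y axis) for PS19 against parental mice, within each APOE line and over all 3 lines. Filled points passed an adjusted p of 0.05 and a fold change of 2. Naip2 is filled in all 4 comparisons, Pycard, Casp4 and Gsdmd in PS/E4H against E4H.

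Naip2 had the largest fold change of the 10 genes in each of the 3 lines and in the fit over all mice. It encodes a receptor for the inner rod protein of bacterial type III secretion systems, and lies on chromosome 13 (GRCm38, 100144063 to 100202092, minus strand). Its levels were 1.11, 1.47 and 1.47 CPM in E2H mice, 1.74, 1.41 and 2.28 CPM in E3H mice and 1.62, 1.39 and 1.83 CPM in E4H mice. In PS/E2H mice they were 3.61, 2.85, 4.77 and 2.78 CPM, in PS/E3H mice 2.48, 5.26, 4.76 and 6.07 CPM and in PS/E4H mice 6.19, 5.34, 4.06 and 4.99 CPM. The lowest of the 12 PS19 mice, at 2.48 CPM, was above the highest of the parental mice, at 2.28 CPM, and 1.38% of all genes separated the mice in this way. The log2 fold change over all mice was 1.47 ± 0.153 (SE, adjusted p = 3.76e-07).

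Within the lines, Naip2 was called in PS/E2H against E2H (log2 fold change 1.37 ± 0.257, adjusted p = 0.0475), in PS/E3H against E3H (1.34 ± 0.3005, adjusted p = 0.0309) and in PS/E4H against E4H (1.67 ± 0.196, adjusted p = 0.000742). It was the only one of the 10 genes called in the first 2 of these comparisons, where 0.451% and 1.2% of all genes were called higher. The call in E2H mice stood only without PS/E2H replicate 4 and was lost without any other of the 7 mice (adjusted p up to 0.194, without E2H replicate 3). The call in E3H mice stood only without PS/E3H replicate 1 (adjusted p otherwise up to 0.137, without E3H replicate 1), while the call in E4H mice stood with any mouse left out. Both of those calls were also lost in limma fits of FPKM and without a filter on low counts.

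Naip5, which encodes a flagellin receptor, lies next to Naip2 (chromosome 13, 100211739 to 100246323, minus strand). It ranged from 1.01 to 2.32 CPM in the parental mice and from 1.40 to 4.25 CPM in the PS19 mice, and 9 of the 12 PS19 mice were above every parental mouse. Its log2 fold change was 0.69 ± 0.1797 over all mice (adjusted p = 0.00784) and 0.94 ± 0.248 in PS/E4H against E4H (adjusted p = 0.0295), just under a fold of 2, and the latter did not pass without any 1 of the E4H mice. In the other lines it was 0.61 ± 0.397 (adjusted p = 0.666) and 0.49 ± 0.220 (adjusted p = 0.226).

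The Naip genes are related copies that share stretches of sequence. How the authors' counting divided reads that match more than 1 of them is not given in the sources used here. Of all 50-base windows in the annotated transcripts, 36.9% of those of Naip5 and 19.1% of those of Naip2 occur in another gene, most often in Naip6, Naip3 and Naip1 for Naip5 and in Naip1, Naip3 and Naip5 for Naip2. The values of Naip2 and Naip5 are uncertain to that extent. The longest run of coding sequence that both share is 140 bases, in exon 10 of Naip2 (chr13:100161642-100161781, minus strand) and exon 9 of Naip5 (chr13:100222974-100223113, minus strand) of the GENCODE M21 annotation of GRCm38. It is shown because a read inside it fits both genes equally well.
Naip2 and Naip5, shared run: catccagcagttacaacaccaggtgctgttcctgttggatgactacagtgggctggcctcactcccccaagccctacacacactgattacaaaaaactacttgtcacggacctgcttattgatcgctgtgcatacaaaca

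Nlrc4, the partner that NAIP proteins engage (chromosome 17, 74425438 to 74459142, minus strand), had the lowest level of the 10 genes. It ranged from 0.372 to 1.005 CPM in the parental mice and from 0.270 to 1.16 CPM in the PS19 mice, so that the groups overlapped. The log2 fold change over all mice was 0.04 ± 0.242 (adjusted p = 0.936). Within the lines it was -0.55 ± 0.454 in PS/E2H against E2H, 0.33 ± 0.362 in PS/E3H against E3H and 0.34 ± 0.417 in PS/E4H against E4H, and none of these passed the test.

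Nlrp3 (chromosome 11, 59541568 to 59566956, plus strand) encodes the sensor of membrane and ionic stress. It ranged from 0.570 to 1.44 CPM in the parental mice and from 0.974 to 2.38 CPM in the PS19 mice, and 6 of the 12 PS19 mice were above every parental mouse. The log2 fold change over all mice was 0.81 ± 0.195 (adjusted p = 0.00438). Within the lines it was 0.81 ± 0.315 in E2H, 0.80 ± 0.331 in E3H and 0.80 ± 0.376 in E4H mice, and it passed the test in no single line (adjusted p = 0.373, 0.194 and 0.187).

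Aim2, the sensor of double-stranded DNA (chromosome 1, 173350879 to 173466040, plus strand), differed in its pattern. It was measured at 1.62, 1.29 and 2.72 CPM in E2H mice, at 1.65, 1.46 and 1.23 CPM in E3H mice and at 3.72, 3.74 and 3.50 CPM in E4H mice. The PS/E2H mice had 2.48, 2.43, 3.43 and 1.94 CPM, the PS/E3H mice 2.27, 3.06, 3.43 and 2.75 CPM and the PS/E4H mice 4.14, 3.64, 3.72 and 3.22 CPM. The 3 E4H mice lay above all 14 mice that carried APOE2 or APOE3, PS19 mice included, as they did for 0.669% of all genes.

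Aim2 was higher in PS/E3H than in E3H mice, with a log2 fold change of 0.98 ± 0.220 (adjusted p = 0.0314), just under a fold of 2, where 3.35% of all genes were higher at that adjusted p. This pass was lost without any 1 of 6 of the 7 mice, all but PS/E3H replicate 1. The log2 fold change was 0.44 ± 0.305 in PS/E2H against E2H (adjusted p = 0.698) and 0.00 ± 0.153 in PS/E4H against E4H (adjusted p = 0.988). The change from parental to PS19 mice differed between the E4H and E3H lines by -0.98 ± 0.245 on the log2 scale (unadjusted p = 0.00114, adjusted p = 0.9999). This difference failed the adjustment over all genes. The summed microglia markers were at 486 to 502 CPM in E4H and 498 to 528 CPM in E3H mice. The summed T cell markers were higher in E4H mice without overlap (18.5 to 18.9 against 14.8 to 17.1 CPM). Those of border macrophages (6.63 to 9.31 against 9.90 to 13.1 CPM) and endothelial cells (150 to 153 against 169 to 181 CPM) were lower without overlap. So were those of neutrophils and monocytes (1.44 to 1.72 against 1.74 to 2.66 CPM). No tested gene of these lists passed the adjusted p in E4H against E3H. In any mouse, Cd4 reached 826 counts and Trbc2 737, but Cd3d only 19, Cd8a 25, Cd3e 29 and Cd3g 35. Of the 6 T cell markers 3 were tested in E4H against E3H. Their log2 fold changes ran from -0.42 to 0.53, and 0 passed the adjusted p. The part of these cell types in the level of Aim2 was not tested.

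Pycard, the adaptor gene (chromosome 7, 127989708 to 127993867, minus strand), was measured at 3.09, 3.53 and 2.85 CPM in E2H mice, at 2.47, 3.27 and 2.32 CPM in E3H mice and at 3.11, 2.24 and 1.79 CPM in E4H mice. The PS/E2H mice had 4.71, 3.19, 3.22 and 1.67 CPM, the PS/E3H mice 1.97, 5.86, 5.61 and 4.20 CPM and the PS/E4H mice 6.37, 5.22, 5.30 and 6.84 CPM. All 4 PS/E4H mice were above all E4H mice, while the groups overlapped in the other lines. The gene was called in PS/E4H against E4H, with a log2 fold change of 1.31 ± 0.211 (adjusted p = 0.00355), and the call stood with any of the 7 mice left out.

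For Pycard the log2 fold change was 0.70 ± 0.329 in PS/E3H against E3H (adjusted p = 0.251), 0.01 ± 0.302 in PS/E2H against E2H (adjusted p = 0.994) and 0.67 ± 0.212 over all mice (adjusted p = 0.0255). The change from parental to PS19 mice differed between the E4H and E2H lines by 1.30 ± 0.386 (unadjusted p = 0.00425, adjusted p = 0.352), which failed the adjustment over all genes. The transcripts of Pycard share 485 exonic bases, 12.8% of the gene's exonic sequence, with Gm45205 on the opposite strand. The library kit keeps the strand, but whether the counting used it is not given in the sources used here.

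Among the caspases, Casp8 (chromosome 1, 58795374 to 58847503, plus strand), the initiator of death-receptor signalling that can also be drawn into inflammasomes, ranged from 2.05 to 3.36 CPM in the parental mice and from 2.16 to 5.70 CPM in the PS19 mice. It lay above every parental mouse in 10 of the 12 PS19 mice. Its log2 fold change was 0.62 ± 0.143 over all mice (adjusted p = 0.0034) and 0.65 ± 0.192 in PS/E4H against E4H (adjusted p = 0.0459), and the latter passed the test only without E4H replicate 3 or PS/E4H replicate 3 when 1 mouse was left out. In PS/E3H against E3H it was 0.71 ± 0.228 (adjusted p = 0.0996) and in PS/E2H against E2H 0.46 ± 0.294 (adjusted p = 0.66).

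Casp4 (chromosome 9, 5308828 to 5336783, plus strand) encodes the caspase that binds lipopolysaccharide in the cytosol and cleaves gasdermin D directly. It was measured at 0.684, 0.677 and 0.793 CPM in E4H mice and at 2.04, 1.37, 1.22 and 1.29 CPM in PS/E4H mice, and these groups did not overlap. Its log2 fold change of 1.03 ± 0.282 was called (adjusted p = 0.0337), but the call was lost when any 1 of 5 of the 7 mice was left out, and without PS/E4H replicate 1, the highest, the log2 fold change was 0.85 (adjusted p = 0.0675). In the other lines the groups overlapped, with 0.39 ± 0.373 for E2H (adjusted p = 0.803) and 0.31 ± 0.364 for E3H (adjusted p = 0.688). Over all mice it was 0.58 ± 0.194 (adjusted p = 0.0343).

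Casp1 (chromosome 9, 5298517 to 5307265, plus strand), the caspase at the centre of the canonical pathway and the neighbour of Casp4, ranged from 2.94 to 4.91 CPM in the parental mice and from 2.34 to 5.03 CPM in the PS19 mice. The log2 fold change over all mice was -0.00 ± 0.129 (adjusted p = 0.995). Within the lines it was -0.28 ± 0.247 for E2H, 0.11 ± 0.224 for E3H and 0.15 ± 0.161 for E4H, and no line passed the test.

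Gsdmd, the pore-forming effector (chromosome 15, 75862327 to 75867408, plus strand), was measured at 1.86, 2.07 and 2.31 CPM in E2H mice, at 2.48, 2.35 and 2.32 CPM in E3H mice and at 1.56, 2.22 and 1.57 CPM in E4H mice. The PS/E2H mice had 3.68, 4.17, 4.64 and 3.03 CPM, the PS/E3H mice 2.78, 3.89, 3.17 and 5.09 CPM and the PS/E4H mice 6.61, 3.74, 3.09 and 5.43 CPM. As with Naip2, all 12 PS19 mice were above all parental mice, as for 1.38% of all genes, and the groups did not overlap in any line. The log2 fold change was 0.98 ± 0.154 over all mice (adjusted p = 7.48e-05), just under a fold of 2.

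Gsdmd was called in PS/E4H against E4H (1.40 ± 0.281, adjusted p = 0.01). The call stood with any mouse left out and was lost with a replicate block (1.26, adjusted p = 0.0569) and on log2(FPKM + 1), where the log2 fold change was 0.71 (adjusted p = 0.03, or 0.0897 without a filter on low values). In PS/E2H against E2H it was 0.89 ± 0.210 (adjusted p = 0.104) and in PS/E3H against E3H 0.63 ± 0.223 (adjusted p = 0.131). The effect in the E4H line exceeded that in the E3H line by 0.76 ± 0.368 (unadjusted p = 0.0563, adjusted p = 0.9999), which did not pass.

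By line, 4 of the 10 genes were called higher in PS/E4H against E4H (Naip2, Pycard, Gsdmd and Casp4), where 2.4% of all genes were called higher, and 6 passed the adjusted p alone, where 8.62% of all genes were higher at that limit. With 1 mouse left out 3 to 6 passed the adjusted p (3 without E4H replicate 1 or replicate 2), and 2 passed with the replicate block and on log2(FPKM + 1) without a filter. In PS/E3H against E3H 2 passed, and with 1 mouse left out 0 to 5 did: without PS/E3H replicate 1, the lowest of its group in 8 genes, Aim2, Pycard, Casp8, Gsdmd and Naip2 passed. In PS/E4H against E4H 6 genes did not overlap between the groups (Naip2, Pycard, Gsdmd, Casp4, Casp8 and Naip5), beside 15.0% of all genes higher without overlap. In PS/E3H against E3H, Aim2, Gsdmd and Naip2 did not overlap, beside 10.5% of all genes, and in PS/E2H against E2H, Gsdmd and Naip2 did not, beside 6.67%. The median log2 fold change of the 10 genes was 0.45 for E2H, 0.67 for E3H and 0.87 for E4H. No member passed the test of a difference between lines: no gene of the 22031 to 22212 tested did at an adjusted p under 0.05 by edgeR, so 0.0% were called, with 847 to 2223 genes at an unadjusted p under 0.05 and 8 to 115 genes, none of them a member, called by DESeq2. More calls in the E4H line is therefore not shown to be a difference between lines.

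The second question was whether the APOE allele went with the level of these genes. The allele cannot be told apart from other differences between the lines, nor from sex where groups held unequal numbers of female mice. Among PS19 mice the allele cannot be told apart from age at paralysis, which the paper reports as latest for PS/E3H mice. In the parental mice, Aim2 was the only gene of the 10 called, in E4H against E3H, with a log2 fold change of 1.34 ± 0.186 (adjusted p = 0.0227), where 0.0477% of all genes were called higher and 6.29% were higher without overlap, as Aim2 was. The adjusted p rose above 0.05 with any 1 of the 6 mice left out, from 0.0627 to 0.122, with log2 fold changes of 1.23 to 1.44. Against E2H the log2 fold change was 0.96 ± 0.277 (adjusted p = 0.346), where 0.187% of all genes were called in either direction. The groups did not overlap for Aim2, and 9.82% of all genes were higher in E4H than in E2H mice without overlap. The other 9 genes ranged from -0.42 (Gsdmd) to 0.21 (Nlrp3) in E4H against E3H, and Gsdmd was lower without overlap, as were 6.37% of all genes. In E2H against E3H no member was called (0.144% of all genes were, in either direction), and Casp4 (-0.50 ± 0.348) and Gsdmd (-0.20 ± 0.198) were lower without overlap, as were 10.5% of all genes.

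**Figure D3:**
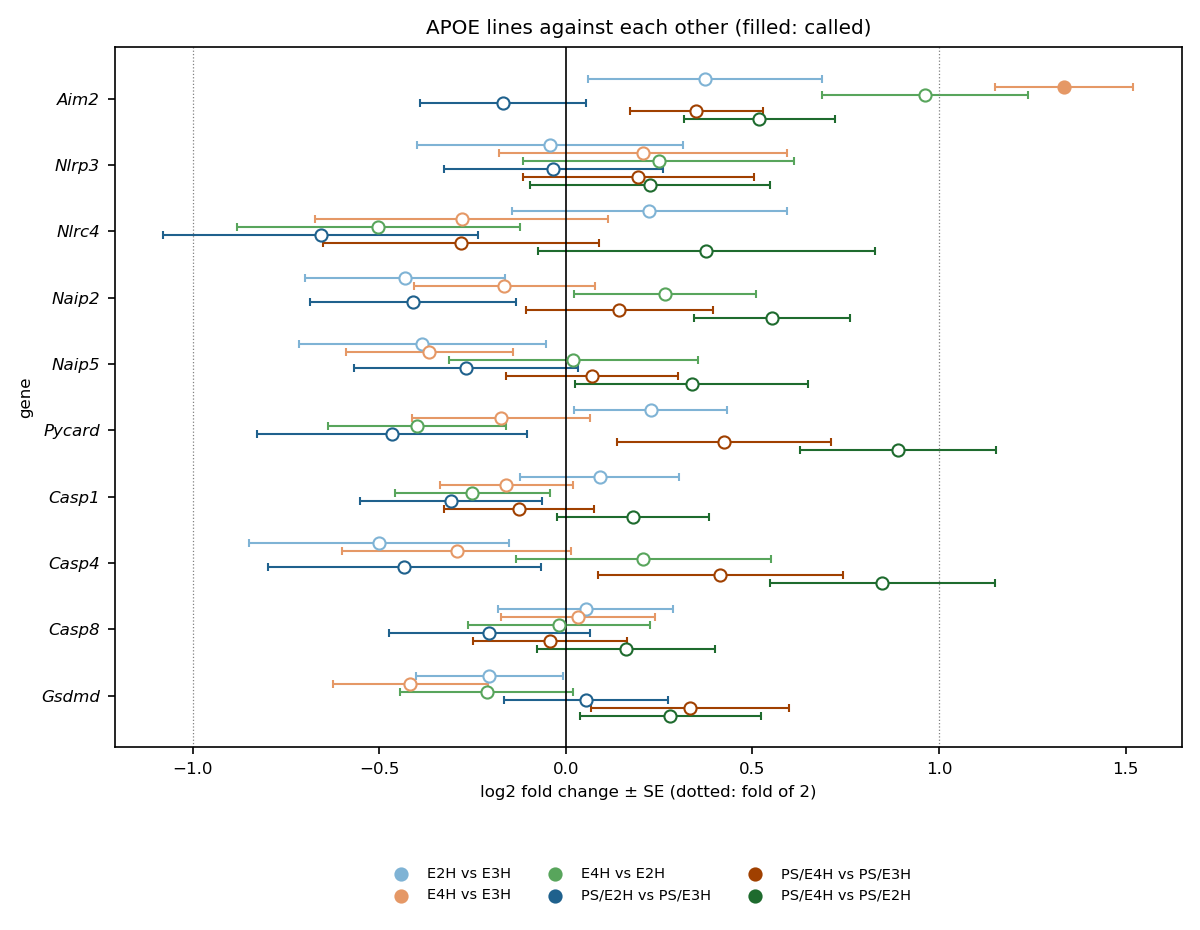
Log2 fold change with its standard error (x axis) of each gene (y axis) between APOE lines, for parental mice (light colours) and PS19 mice (dark colours). The single filled point, past an adjusted p of 0.05 and a fold change of 2, is Aim2 in E4H against E3H mice at 1.34.

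Among the PS19 mice no member was called in any of the 3 comparisons (edgeR), where 0.108% of all genes were called in PS/E2H against PS/E3H, 0.0197% in PS/E4H against PS/E3H and 0.109% in PS/E4H against PS/E2H, in either direction. The comparison of PS/E4H with PS/E2H mice had all 10 log2 fold changes above 0, with a median of 0.36, and 4 genes had an unadjusted p under 0.05, where 12.3% of all genes did: Pycard (0.89 ± 0.263, adjusted p = 0.298), Casp4 (0.85 ± 0.301, adjusted p = 0.349), Naip2 (0.55 ± 0.209, adjusted p = 0.358) and Aim2 (0.52 ± 0.202, adjusted p = 0.366). In the same comparison the microglia markers had all 12 log2 fold changes above 0, with a median of 0.33, and the oligodendrocyte markers all 5, with a median of 0.39, and their part in the result was not tested. In the other 2 comparisons 0 members had an unadjusted p under 0.05, where 11.7% of all genes did in PS/E2H against PS/E3H and 6.51% in PS/E4H against PS/E3H. Pycard and Casp4 did not overlap between PS/E4H and PS/E2H mice, beside 3.47% of all genes. Aim2 in PS/E4H against PS/E3H mice was 0.35 ± 0.179 (adjusted p = 0.78), with 1 PS/E3H mouse (3.43 CPM) above the lowest PS/E4H mouse (3.22 CPM). The comparisons of one line share mice with each other and are not independent.

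Single mice stood apart. PS/E3H replicate 1 was the lowest of its group in 8 of the 10 genes and PS/E2H replicate 4 in 7 of 10, and both also had the lowest microglia markers of their groups, at 800 and 733 CPM. PS/E2H replicate 3 was the highest of its group in 7 genes and E3H replicate 3 the lowest of its group in 7. PS/E4H replicate 1 was the highest of its group in 6 genes and had the highest microglia markers of all mice, at 1369 CPM. It also had 24.3 CPM of the summed neutrophil and monocyte markers, and PS/E3H replicate 4 had 40.0 CPM, while the other mice had 0.883 to 10.7 CPM.

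Markers of several cell types differed between PS19 and parental mice. By the fit over all mice, 9 of the 12 microglia markers rose and 5 were called, 5 of the 6 border macrophage markers rose (6.63 to 13.1 CPM summed in parental and 16.4 to 32.3 CPM in PS19 mice) and all 6 astrocyte markers rose. Of the neutrophil and monocyte markers 2 of 8 tested rose, of the T cell markers 0 of 6 (edgeR, 1 at an unadjusted p under 0.05), and 3 of 6 neuronal markers fell while 1 rose. Of the forebrain markers 5 of 6 fell (322.8 to 422.6 CPM summed in parental and 232 to 340.2 CPM in PS19 mice), and 3 of 5 oligodendrocyte and 3 of 5 endothelial markers rose. Of all genes, 11.4% rose at an adjusted p under 0.05 in this fit (edgeR) and 2.24% were called higher. The share of all genes that fell is not reported here. The ratio of the mean summed microglia markers between PS19 and parental mice was 0.79 on the log2 scale for E2H, 0.98 for E3H and 1.29 for E4H. For the 10 genes, Naip2 exceeded this value in each line, Gsdmd exceeded it for E2H and E4H, Pycard for E4H, Nlrp3 for E2H and Aim2 equalled it for E3H, all in log2 fold changes given above and without a test of the excess. The part of the cell types in these results was not tested.

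**Figure D4:**
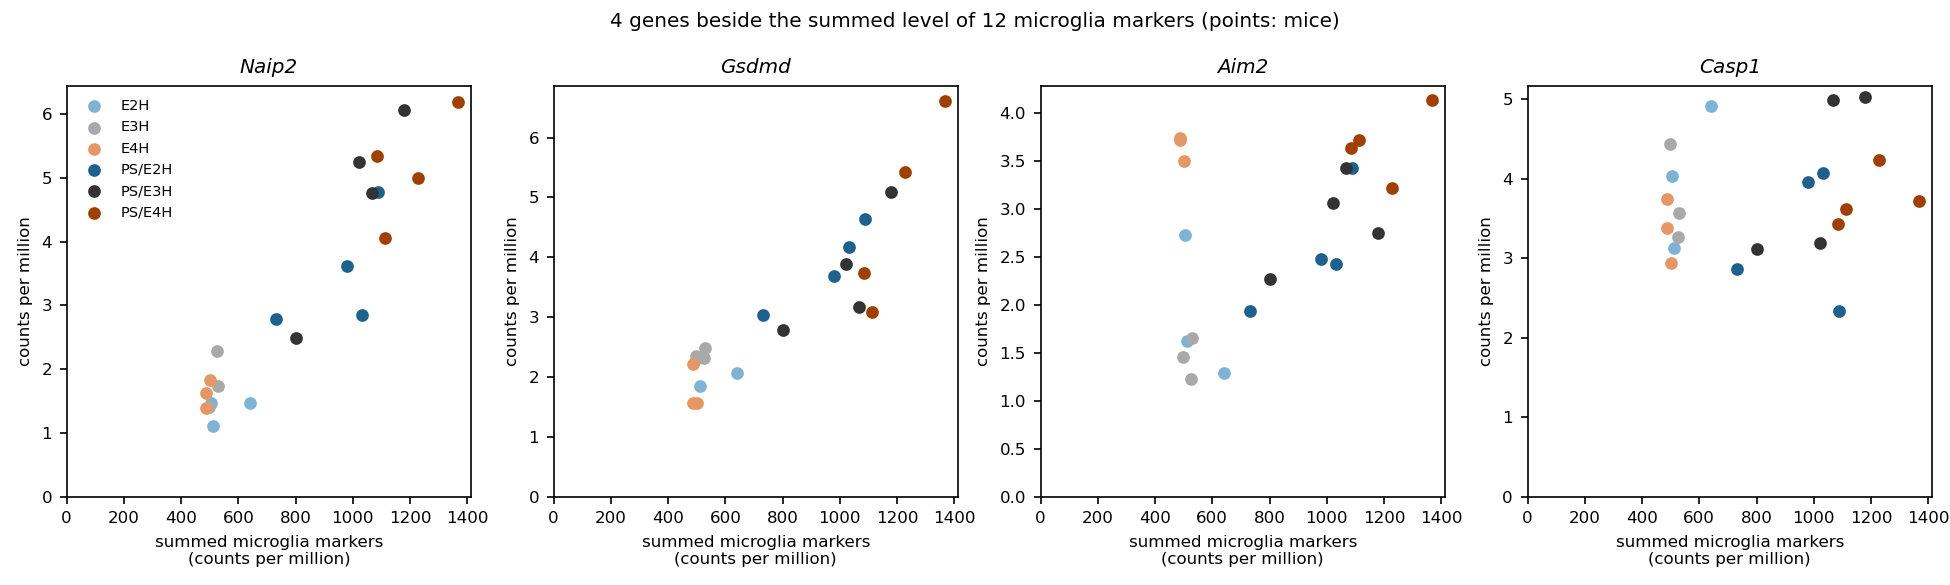
CPM of Naip2, Gsdmd, Aim2 and Casp1 (y axes) beside the summed CPM of 12 microglia markers (x axis) in each mouse, coloured by group. The parental mice lie between 486 and 642 CPM of markers and the PS19 mice between 733 and 1369 CPM, and the 3 E4H mice stand at 3.50 to 3.74 CPM of Aim2 at the low end of the marker axis.

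Other genes of the pathway were taken from lists fixed by role. For all these lists, the shares over all genes in the fit over all mice were 11.4% that rose and 2.24% called higher. Of the 15 genes that prime or trigger inflammasomes, 11 rose in the fit over all mice and 4 were called. Irf8, a transcription factor of myeloid cells, rose by 1.21 ± 0.138 on the log2 scale (adjusted p = 1.27e-06), and Zbp1, a sensor of Z-form nucleic acids, by 1.79 ± 0.280 (adjusted p = 7e-05). Gbp2, a guanylate-binding protein that acts on bacterial membranes, rose by 1.24 ± 0.190 (adjusted p = 5.26e-05) and Txnip, a thioredoxin-binding protein reported to engage NLRP3, by 0.79 ± 0.101 (adjusted p = 5.48e-06).

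Of the 9 cytokine and receptor genes of the IL-1 family, 5 rose and 3 were called. The transcript of the receptor antagonist, Il1rn, was close to or at 0 in the parental mice (0 to 11 counts) and ranged from 6 to 161 counts in the PS19 mice. Its fitted log2 fold change, 3.82 ± 0.658 (adjusted p = 0.000203), depends on those near-zero values. Il1b rose by 1.47 ± 0.408 (adjusted p = 0.0119), Il1a by 0.92 ± 0.239 (adjusted p = 0.00809) and the receptor Il1r1 by 0.55 ± 0.151 (adjusted p = 0.0116), while Il18, whose product is the other cytokine matured by caspase-1, had a log2 fold change of 0.12 (adjusted p = 0.275).

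Of 10 further sensors tested, 3 rose: Nlrp6 (0.89 ± 0.268, adjusted p = 0.0209), Naip6 (0.97 ± 0.298, adjusted p = 0.0232) and Nod1 (0.36 ± 0.113, adjusted p = 0.0239). Naip1, which shares windows with Naip2 and Naip5, had a log2 fold change in the other direction, -1.05 ± 0.528, and did not pass (adjusted p = 0.172). Of the 4 other gasdermin and membrane-rupture genes tested, Ninj1, whose protein breaks the membrane after pore formation, rose by 0.43 ± 0.0863 (adjusted p = 0.00089), and Gsdme had -0.03 ± 0.0516 (adjusted p = 0.703). Of the 5 partners of caspase-8 and necroptosis genes, Ripk1 (0.49 ± 0.0813, adjusted p = 0.000147) and Cflar (0.98 ± 0.333, adjusted p = 0.0385), an inhibitor of caspase-8, rose. Of 6 other caspases tested none rose or fell by edgeR, with 1 at an unadjusted p under 0.05, Casp12 (0.42 ± 0.181, adjusted p = 0.106).

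Within groups, the genes followed partly different neighbours. Deviations from the group mean, over 21 mice and on log2(CPM + 0.1), were compared with those of 15773 genes. Gsdmd was most like Gbp5 (r = 0.87), Parp14 (0.85) and Gbp3 (0.85), Naip2 most like Prdm16 (0.94), Ctsc (0.91) and Mpeg1 (0.90), Aim2 most like Sepsecs (0.91), Nlrp3 most like Prdm1 (0.87) and Casp8 most like Piga (0.92). Of the 45 pairs among the 10 genes, 41 had a correlation above 0, with a median of 0.37, from -0.35 for Casp1 with Naip5 to 0.71 for Casp8 with Naip5. These values describe mice that share sequencing depth and composition, and the leading genes were picked from many.

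In promoter sequence from RefSeq (GRCm38.p6), 9 of the 10 genes had an entry, in 11 windows, and Gsdmd is named only. The 250 bases before each start were searched on both strands for GAGGAAGT, a form of the box bound by the myeloid factor PU.1, which occurs in 2.44% of 32851 windows of that length. Aim2 and Pycard held it, and no other member did. They are shown, with the box in capitals, because they were the only members with a match. The box lies from 113 to 106 bases before the RefSeq start of Aim2. That start lies inside the gene as annotated, not at its first base (173350879). For Pycard the box lies on the opposite strand, from 44 to 37 bases before the start.
Aim2, chr1:173420471-173420518, plus strand: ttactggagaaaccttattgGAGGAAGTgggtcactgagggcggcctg
Pycard, chr7:127993884-127993931, minus strand: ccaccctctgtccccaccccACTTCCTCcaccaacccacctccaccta

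No member held the searched spelling of an ETS-IRF composite element (in 2.3% of windows), an interferon-stimulated response element (2.98%), an NF-kB site (0.356%) or TTCCNGGAA (a gamma-activated site, 0.913%) in these windows. Each was searched in 1 spelling. Other spellings were not searched, and the Casp4 windows hold another form of the NF-kB site, noticed after the search. Also noticed later, the windows of Naip2, Naip5 and Nlrc4 hold all but the first letter of the PU.1 box, on the opposite strand. A match is a description of letters and not a binding site.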

How the data were processed

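The deposited count table holds whole-number counts per gene for 21 forebrain poly(A) libraries, and the deposited FPKM table holds values the authors computed with StringTie after trimming with cutadapt and alignment with HISAT2 to GRCm38.p5, per the submitters' processing notes. How the counts were taken from the alignments is not given in the sources used here. Counts were fitted with edgeR 4.0.16 (TMM, filterByExpr with a minimum count of 10, glmQLFit and glmQLFTest, R 4.3.3) on the mice of each comparison, with Benjamini-Hochberg adjustment over all genes tested. A call needed an adjusted p under 0.05 and a fold of at least 2, or for interactions the adjusted p alone. The SE is the size of the log2 fold change divided by the square root of F. All 10 genes were named, and in each other list up to 4 of the genes of smallest p, beside genes chosen after their values were seen. The genes and lists were chosen with earlier results of these data known. Alternatives used DESeq2 1.42.0, limma 3.58.1 on log2(FPKM + 1) and log2(FPKM + 0.1), RLE normalization, no filter, all 6 groups in 1 fit, a block for the replicate number, and mice left out. The edgeR step was tested on simulated data. At 59265459 to 75932183 counts per mouse, 3 counts or fewer were taken as not detected. Over all genes together, all 27 pairs of mice within a group differed beyond sampling noise. For genes of few counts, such as Nlrc4 (16 to 73 counts), counting error is also part of the spread of 3 or 4 mice.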

Additional observations from a re-analysis of the deposited data

Results flagged for a closer look

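In 30 sets of 4 PS19 mice, 1 for each of the 10 genes in each PS19 group, a single value stood far from the others: Naip5 in PS/E4H replicate 1, at 4.25 CPM, where the other PS/E4H mice had 2.44 to 2.65 CPM. The gap to the nearest mouse was 0.884 of the whole range, past Dixon's 95% critical value for 4 samples. Chance gives about 1 such value in 20 sets. Without that mouse the log2 fold change of Naip5 in PS/E4H against E4H was 0.72 (adjusted p = 0.0464 by edgeR, beside 0.94 and 0.0295 with it). The same mouse had the highest summed microglia markers (1369 CPM) and 24.3 CPM of the summed neutrophil and monocyte markers, and their part in the value was not tested. Groups of 3 mice were not examined in this way.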

How the results depend on the processing

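Of the counts of members called, 93 of 114 values under alternatives other than leaving out a mouse stayed within 1.5 times the value given above. Naip2 in PS/E2H against E2H went from 1 call to 0 without a filter on low counts and in the 3 limma fits of FPKM, on log2(FPKM + 1) with and without a filter on low values and on log2(FPKM + 0.1). In PS/E3H against E3H the count was 0 in those 4 settings and with a replicate block, and 2 with no fold limit. In PS/E4H against E4H it went from 4 to 0 on log2(FPKM + 1) with and without the filter, and to 2 with the replicate block, where Casp4 (1.06, adjusted p = 0.116) and Gsdmd (1.26, adjusted p = 0.0569) were lost. Aim2 in E4H against E3H was 0 calls without the filter, in the 3 limma fits and with the block. Over all mice the count was 0 on log2(FPKM + 1) with and without the filter and 8 with no fold limit. The log2(FPKM + 1) scale understates the change of low genes.

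With 1 mouse left out, the count of members called ranged from 0 to 1 in PS/E2H against E2H, 0 to 2 in PS/E3H against E3H, 3 to 5 in PS/E4H against E4H, 0 to 0 in E4H against E3H and 1 to 2 over all mice. Signs reversed only for values near 0. Pycard in PS/E2H against E2H was -0.0313 on log2(FPKM + 0.1) and -0.235 to 0.23 with a mouse left out. Casp1 in PS/E3H against E3H was -0.029 with the replicate block and -0.00688 to 0.24 with a mouse left out. Aim2 in PS/E4H against E4H was -0.00409 by DESeq2, -0.00492 without the filter, -0.00319 on log2(FPKM + 1) with and without the filter, -0.00742 on log2(FPKM + 0.1) and -0.0503 to 0.0701 with a mouse left out. Over all mice, Nlrc4 was -0.0200 without the 2 mice high in neutrophil markers and -0.0456 to 0.14 with 1 mouse left out, and Casp1 -0.0428 to 0.0639.

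The replicate numbers did not pair the mice: deviations of same-numbered mice correlated at -0.25 to 0.30 over 30 pairs, and in 0 of 9 comparisons did every mouse correlate best with its own number. The counts of all genes called depended on the tool, from 78 on log2(FPKM + 1) without a filter to 638 by DESeq2 over all mice, beside 595.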
